A study of Mus musculus with 15 samples.

Results

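The LH3 virus with blood-pressure-raising drugs was compared with the saline control in cerebral vessels, to describe what remained different from control once LH3 was supplied. The comparison took 10 of the 15 libraries, chosen by their group labels: 5 of the group LH3-AL and 5 of the group GFP-Veh. All mice were wild-type C57BL/6 aged 8 months. GFP-Veh mice received, by stereotactic injection, the gene for green fluorescent protein (GFP) in an adeno-associated virus (AAV), then saline. LH3-AL mice had the same kind of injection with an AAV carrying LH3, then angiotensin II (AngII) together with L-NAME, which blocks nitric oxide synthases. The 5 libraries of the group GFP-AL, with the GFP virus and both drugs, are given beside the comparison. No group had the LH3 virus with saline, so the effects of virus cargo and drugs on this difference cannot be told apart. The labels do not state the promoter of the virus, the site of injection, or whether each library came from its own mouse, so p-values measure the spread between libraries, which may be technical.

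Small vessels of the brain consist of endothelial cells on a basement membrane rich in type IV collagen, wrapped by pericytes or smooth muscle. LH3, the product of Plod3, is a lysyl hydroxylase that also glycosylates hydroxylysines, modifications that type IV collagen needs for its assembly and secretion. AngII with L-NAME raises blood pressure by constricting vessels and removing nitric oxide, and is used in mice to provoke bleeding in the brain.

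By estimate, the control libraries were mostly shallower: 4 of them held 13.6 to 16 M fragments (M stands for mega) and the fifth 29.8 M. The LH3-AL libraries held an estimated 18.1 M (replicate 1) up to 31.6 M. Multiples of a library's depth score as well in this estimate, so the smallest well-scoring value was taken. Over the 15 libraries, 42.4% to 65.2% of the values used lay within 0.1 of a whole number of fragments, so these depths are approximate. Endothelial markers were abundant, with summed levels of 3473 to 4749 FPKM (fragments per kilobase of transcript, scaled to library depth) in GFP-Veh and 3454 to 4537 FPKM in LH3-AL. Markers of choroid plexus and ependyma were also present, at 3754 to 9309 FPKM in GFP-Veh and 3223 to 5338 FPKM in LH3-AL, although the preparation removed choroid plexus. In this bulk RNA, fewer cells of a type and less RNA per cell cannot be told apart. LH3-AL libraries also differed among themselves. Arntl, a core clock transcription factor, stood at 28.8, 20.8, 7.99, 8.72 and 8.36 FPKM in LH3-AL replicates 1 to 5, against 27.01, 22.9, 29.1, 24.7 and 25.4 FPKM in GFP-Veh replicates 1 to 5. Fos, an immediate early transcription factor, stood at 50.2, 29.6, 2.76, 2.44 and 1.76 FPKM in LH3-AL and 14.5, 13.7, 9.43, 8.51 and 16.8 FPKM in GFP-Veh. For Arntl, replicate 1 lay within the control range, replicate 2 just under it and replicates 3 to 5 far under it. For Fos, replicates 1 and 2 lay above every control library and replicates 3 to 5 below every one. Differences of several genes in these groups are therefore given with and without replicates 1 and 2. List counts and medians of these groups use all libraries. GFP-Veh replicate 2 stood apart over all genes, at 42.9 on the first principal component of the 10 libraries, against -13.7 to 5.40 in the others. Without it, limma called 47 genes in LH3-AL against GFP-Veh, 16 higher and 31 lower.

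Plod3 (chr5:136987019-136996648 in GRCm38), the gene the virus carries, was measured at 16.9, 16.5, 16.96, 17.6 and 15.96 FPKM in GFP-Veh replicates 1 to 5 and 21.2, 21.3, 22.9, 19.5 and 23.2 FPKM in LH3-AL replicates 1 to 5. Every LH3-AL library lay above every GFP-Veh library, and the GFP-AL libraries lay below both, at 12.2 to 14.9 FPKM. The log2 difference was 0.34 (SE 0.08), which fell short of the threshold of 0.05 across all genes (limma adjusted p = 0.0628). An exact two-sided permutation over the 10 libraries gave p = 0.00794, the smallest value that 252 assignments allow. Any gene whose LH3-AL and GFP-Veh libraries do not overlap gets this value, so it adds nothing to the separation given above. Of the 13082 genes tested, 611 (4.67%) had no overlap. The table does not separate the viral from the mouse transcript. The other lysyl hydroxylases, Plod1 and Plod2, differed by -0.13 and -0.05 (limma adjusted p = 0.633 and 0.96).

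Col4a1, the main type IV collagen chain, was at 105, 102, 104, 96.4 and 100.4 FPKM in GFP-Veh and 104, 86.0, 109.7, 108 and 172 FPKM in LH3-AL, with replicate 5 alone far above the control. Its log2 difference was 0.15 (limma adjusted p = 0.8), and it was -0.00094 without LH3-AL replicate 5 (limma adjusted p = 0.999). Col4a2 differed by 0.45 (limma adjusted p = 0.446). No limma call fell among the 21 basement membrane genes tested, 2 had an unadjusted p below 0.05, and their median log2 difference was 0.14, beside -0.01 over all genes tested. In GFP-AL, compared with the same GFP-Veh libraries, 4 of these genes were called higher and 7 lower (10.8% and 17.7% of all genes tested), with Col4a1 at -1.16 and Col4a2 at -1.01 on the log2 scale.

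Of 13082 genes tested, limma called 68 in LH3-AL against GFP-Veh, or 0.52% of those tested. The 19 genes called higher were 0.145% of the genes tested and the 49 called lower were 0.375%. In 66 of the 68, all 5 LH3-AL libraries lay on one side of all 5 GFP-Veh libraries, a property that 611 genes had in all (4.67%). At least 2-fold differences on the log2(FPKM + 1) scale were seen in 14 of the higher and 18 of the lower genes. The same fit called 28.6% of genes in GFP-AL against GFP-Veh and 28.5% in LH3-AL against GFP-AL; these comparisons share libraries with the one described. The count for LH3-AL against GFP-Veh was 176 when only these 2 groups were fitted and 4 (Dnaja1, Cacybp, Stip1 and Dusp8, all lower) with depth as a covariate. All 68 kept their sign in that fit, where Hbb-bt differed by 1.92 (1.91 without the covariate), Lrg1 by 2.81 (2.49) and Dusp8 by -1.20 (-1.21). Others shrank, such as Klf2 to -0.97 (-1.34), Klf4 to -0.87 (-1.18), Dbp to 1.36 (1.78) and Nr1d1 to 0.78 (1.06). A covariate can also widen the SE: for Plod3 it was 0.11 with depth and 0.08 without, at differences of 0.35 and 0.34. Without LH3-AL replicates 1 and 2 the count was 72, of which 43 were among the 68. These libraries were left out for their clock and immediate early gene values, so that count is no test of those genes. When each of the 10 libraries was left out in turn, 23 of the 68 were called every time, and each of the other 45 lost its call at least once (limma adjusted p of up to 0.155). Fits with fewer libraries have less power, so a lost call need not mean that the difference rested on the library left out. Cct6a, for one, lost its call in all 10 fits at log2 differences of -0.47 to -0.42. Exons of 24 of the 68 overlap another gene, among them Dnaja1 (Smu1), Dbp (Sphk2), Nr1d1 (Thra), Alas2 (Apex2) and Hspd1 (Hspe1), and reads of such pairs cannot be told apart where strand was not used in counting.

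**Figure D1:**
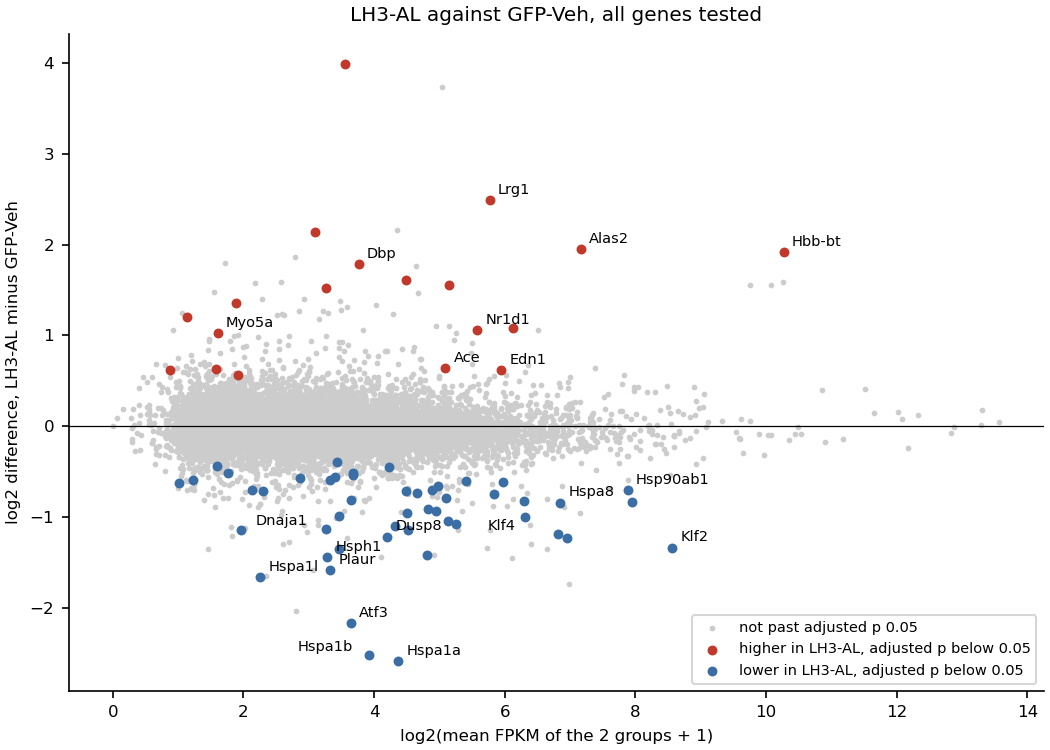
Each point is 1 of the 13082 genes tested, by its mean level (x axis, log2 of FPKM + 1) and its log2 difference LH3-AL minus GFP-Veh (y axis). The 19 genes called higher are red and the 49 called lower are blue, with Hspa1a and Hspa1b lowest. The highest red point is the predicted gene Gm28062, at 3.99.

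Genes for cytosolic and mitochondrial chaperones were lower in LH3-AL. Of 22 heat shock genes tested, 11 were called lower (0.375% of all genes) and none higher (0.145%), with a median log2 difference of -0.70. In 18 of the 22, all LH3-AL libraries lay below all GFP-Veh libraries, against 2.61% of all genes. Heat shock genes encode chaperones that fold or refold proteins, and many are driven by the transcription factor Hsf1, which binds inverted repeats of the unit GAA known as heat shock elements. The promoters of 4 of the genes called lower are shown, and these 4 do not stand for the group. Hspd1, Hsph1 and Chordc1 are the only heat shock genes called lower whose windows held 3 alternating units. The windows of Ahsa1, Dnajb1 and Stip1, also called lower, held no match and are not shown. The sequences are 250 bases before the annotated start site and the first 30 after it, from RefSeq (GRCm38.p6), printed 5′ to 3′ along the gene.
Hspa1a (chr17:34972127-34972406, minus strand): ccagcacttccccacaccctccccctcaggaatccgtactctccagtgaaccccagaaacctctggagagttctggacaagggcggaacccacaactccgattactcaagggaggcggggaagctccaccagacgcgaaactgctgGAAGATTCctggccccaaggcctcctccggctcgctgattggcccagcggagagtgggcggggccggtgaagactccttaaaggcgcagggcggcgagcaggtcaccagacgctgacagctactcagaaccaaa
Hspd1 (chr1:55087903-55088182, minus strand): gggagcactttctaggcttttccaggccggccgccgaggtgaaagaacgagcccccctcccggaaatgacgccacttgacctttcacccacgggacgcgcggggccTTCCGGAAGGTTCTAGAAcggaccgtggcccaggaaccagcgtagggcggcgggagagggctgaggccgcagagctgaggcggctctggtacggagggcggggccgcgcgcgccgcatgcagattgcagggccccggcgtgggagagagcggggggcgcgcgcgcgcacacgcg
Hsph1 (chr5:149636286-149636565, minus strand): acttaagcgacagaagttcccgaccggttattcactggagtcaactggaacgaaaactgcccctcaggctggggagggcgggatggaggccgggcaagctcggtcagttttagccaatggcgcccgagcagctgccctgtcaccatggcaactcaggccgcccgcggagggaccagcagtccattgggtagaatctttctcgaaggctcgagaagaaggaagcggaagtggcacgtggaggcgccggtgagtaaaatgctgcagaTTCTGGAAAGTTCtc
Chordc1 (chr9:18292017-18292296, plus strand): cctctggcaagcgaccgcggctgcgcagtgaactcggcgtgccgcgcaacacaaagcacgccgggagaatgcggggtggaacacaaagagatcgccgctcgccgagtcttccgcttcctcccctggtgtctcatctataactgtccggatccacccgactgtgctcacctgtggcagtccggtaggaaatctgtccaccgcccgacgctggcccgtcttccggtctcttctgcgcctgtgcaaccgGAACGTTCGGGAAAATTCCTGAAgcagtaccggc
Capitals mark 3 alternating units (GAANNTTCNNGAA or TTCNNGAANNTTC, either strand) in Hspd1, Hsph1 and Chordc1, and 2 units (GAANNTTC or TTCNNGAA) in Hspa1a, which has no 3-unit match in this window. Overlapping matches are joined in 1 run of capitals. The run began 104 bases before the start site in Hspa1a, 144 before it in Hspd1 and 4 before it in Chordc1, and at base 16 after it in Hsph1. The Hspd1 window also serves Hspe1, its neighbour on the other strand. The window of Hspa1b equals that of Hspa1a at 296 of 300 bases.

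Within windows of 300 bases, the 3-unit motif was found in 0.603% of 32851 promoters and, taking all windows of a gene together, in 0.592% of the 9628 tested genes with a window. Of the heat shock genes, 17 had a window, and 4 of them held the 3-unit motif: 3 of the 9 called lower and 1 of the 8 not called. The gene not called was Hspe1, which the Hspd1 window also serves, so that stretch is counted on both sides. The 2-unit motif was found in 15.1% of all windows and 13.9% of those genes, in 6 of the 9 heat shock genes called lower and in 5 of the 8 not called. These are matches of letters, not measured binding.

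Hspa1a (chr17:34969190-34972156) and Hspa1b (chr17:34956436-34959238), the stress-inducible Hsp70 genes, are nearly identical, so their reads may have been split between them and their sum is given. The sum was 27.9, 56.2, 68.4, 60.3 and 82.1 FPKM in GFP-Veh replicates 1 to 5 and 16.2, 6.89, 7.20, 5.09 and 6.65 FPKM in LH3-AL replicates 1 to 5. Its mean was 59.0 ± 20.01 FPKM (SD, n = 5) in GFP-Veh and 8.40 ± 4.42 FPKM (SD, n = 5) in LH3-AL. The groups did not overlap, but LH3-AL replicate 1 was the highest of its group and GFP-Veh replicate 1 the lowest of its own. Fitted one by one, Hspa1a differed by -2.58 (SE 0.40, limma adjusted p = 0.00871) and Hspa1b by -2.52 (SE 0.37, limma adjusted p = 0.00582). In GFP-AL the sum was 24.7 ± 16.9 FPKM (SD, n = 5), a mean between those of the other groups. Hspa1l, the third Hsp70 gene of this locus, went from 3.56, 5.94, 7.32, 5.99 and 8.42 FPKM in GFP-Veh to 2.10, 1.09, 1.04, 1.10 and 1.01 FPKM in LH3-AL (log2 difference -1.66, SE 0.26, limma adjusted p = 0.00871).

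Hspa8, the constitutive cytosolic Hsp70, was at 157, 177, 138, 142 and 119.2 FPKM in GFP-Veh and 88.1, 64.8, 86.7, 80.6 and 85.9 FPKM in LH3-AL (log2 difference -0.84, SE 0.14, limma adjusted p = 0.0148). Hsph1, which releases nucleotide from Hsp70, was at 11.5, 13.7, 12.1, 14.2 and 14.5 FPKM in GFP-Veh and 4.86, 4.68, 4.16, 4.22 and 3.29 FPKM in LH3-AL (log2 difference -1.44, SE 0.22, limma adjusted p = 0.0082). Dnaja1, an Hsp40 that hands clients to Hsp70, was at 10.4, 14.1, 13.3, 11.2 and 12.3 FPKM in GFP-Veh and 5.54, 4.52, 4.69, 5.06 and 5.33 FPKM in LH3-AL. Its difference had the smallest p of all genes tested (log2 difference -1.13, SE 0.10, limma adjusted p = 9.33e-05), and it was the same size in GFP-AL against GFP-Veh (-1.12). Dnajb1, another Hsp40, fell by 0.79 on the log2 scale (limma adjusted p = 0.0148), but its call was lost without GFP-Veh replicate 3 or 4 or LH3-AL replicate 3 or 4 (limma adjusted p = 0.0525 to 0.0565).

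Hsp90ab1, the constitutive cytosolic Hsp90, was at 304, 337, 287, 268 and 259 FPKM in GFP-Veh and 199, 162, 179, 176 and 173 FPKM in LH3-AL (log2 difference -0.71, SE 0.10, limma adjusted p = 0.00582). Several of its co-chaperones were lower too. Stip1, which bridges Hsp70 and Hsp90, was at 70.5, 74.4, 68.9, 62.5 and 74.7 FPKM in GFP-Veh and 43.1, 40.4, 39.97, 40.7 and 42.9 FPKM in LH3-AL (log2 difference -0.75, SE 0.09, limma adjusted p = 0.00196). Cacybp, a binding partner of a ubiquitin ligase complex with a domain like that of co-chaperones, was at 24.6, 36.1, 29.5, 28.2 and 26.98 FPKM in GFP-Veh and 15.9, 14.03, 15.2, 12.8 and 14.6 FPKM in LH3-AL (log2 difference -0.95, SE 0.10, limma adjusted p = 6.19e-04). For both genes the highest LH3-AL library was well below the lowest GFP-Veh library. Ahsa1 and Ahsa2, which stimulate the ATPase of Hsp90, fell by 0.61 and 0.72, Ptges3 (p23) by 0.73 and Chordc1 by 0.93 on the log2 scale (limma adjusted p = 0.0148, 0.00561, 0.00807 and 0.0115). Of these, Ahsa1 lost its call without LH3-AL replicate 3 or 4 (limma adjusted p = 0.0529 and 0.0537). Of 16 Hsp90 co-chaperones, a list drawn up after values were seen, 6 were called lower (0.375% of all genes) and none higher, and the median was -0.32. The 16 differences ran from -0.95 to 0.999, with 14 below 0. A list drawn up in that way adds no support. Of the co-chaperones named here, Stip1, Ahsa1 and Chordc1 were already counted among the heat shock genes.

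Hspd1, the mitochondrial chaperonin, was at 31.97, 40.99, 35.1, 34.9 and 34.3 FPKM in GFP-Veh and 25.2, 21.4, 20.4, 20.4 and 19.9 FPKM in LH3-AL (log2 difference -0.70, SE 0.09, limma adjusted p = 0.00444). Its exon overlaps Hspe1, the co-chaperonin, which differed by -0.51 (limma adjusted p = 0.337). The cytosolic chaperonin TRiC, also listed after values were seen, had 2 of 8 subunits called lower (0.375% of all genes), Cct4 (-0.51) and Cct6a (-0.45), and none higher. The Cct4 call was lost without GFP-Veh replicate 3 or LH3-AL replicate 4 (limma adjusted p = 0.0569 and 0.0613), and the Cct6a call without any 1 of the 10 libraries (up to 0.145). Heat shock genes that missed the threshold included Hspb1 (-0.89, limma adjusted p = 0.0512), Bag3 (-0.50, limma adjusted p = 0.0502), Hsp90aa1 (-0.68, limma adjusted p = 0.21) and Hsf1 itself (-0.32, limma adjusted p = 0.355). Of the 24 genes of the unfolded protein response list, which holds the chaperones of the endoplasmic reticulum, limma called none, 5 had an unadjusted p below 0.05, and the median was -0.18.

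In GFP-AL against the same GFP-Veh libraries, 16 of the 22 heat shock genes were called lower and 1 higher (17.7% and 10.8% of all genes), with a median of -0.71. In LH3-AL against GFP-AL, 3 were called lower and 3 higher (11.4% and 17% of all genes), with a median of 0.07. The count of 11 in LH3-AL against GFP-Veh was 9 to 11 when each of the 10 libraries was left out in turn, 8 without LH3-AL replicates 1 and 2, and 2 with depth as a covariate (Dnaja1 and Stip1). With depth as a covariate the called heat shock genes kept their sign, some with larger and some with smaller differences. Hspa1a differed by -2.75 (-2.58 without the covariate), Hspa1b by -2.62 (-2.52), Hsph1 by -1.55 (-1.44) and Chordc1 by -1.10 (-0.93). Smaller differences were those of Hspa8 at -0.65 (-0.84), Hsp90ab1 at -0.59 (-0.71), Hspd1 at -0.61 (-0.70) and Ahsa1 at -0.53 (-0.61). In the plot of chaperone genes, Dnaja1, Cacybp and Stip1 show similar LH3-AL and GFP-AL levels.

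**Figure D2:**
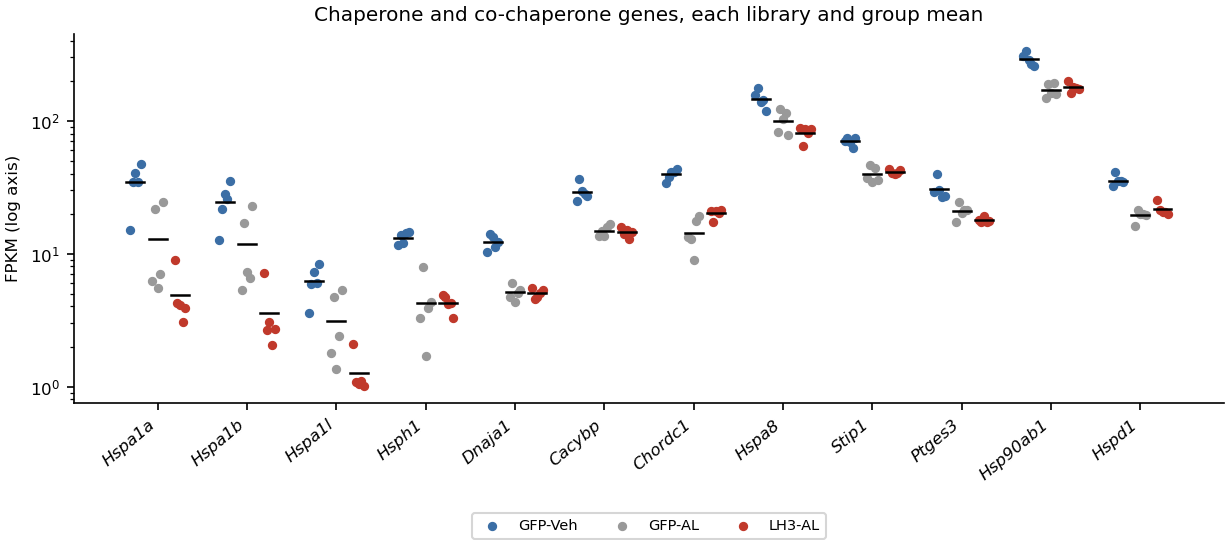
FPKM (y axis, log scale) of 12 chaperone and co-chaperone genes in each library, with black bars for the mean of each group of 5. LH3-AL points (red) lie below GFP-Veh points (blue) for every gene shown, and GFP-AL points (grey) lie near LH3-AL for Dnaja1, Cacybp and Stip1.

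Genes of red blood cells were higher in LH3-AL. All 10 red cell markers tested lay higher in every LH3-AL library than in any GFP-Veh library, against 2.06% of all genes. Limma called 5 of the 10 higher (0.145% of all genes), and the median log2 difference of the 10 was 1.60. Hbb-bt, an adult beta-globin gene, was at 426, 852, 365, 464 and 478 FPKM in GFP-Veh and 1396, 1687, 2051, 1487 and 3114 FPKM in LH3-AL (log2 difference 1.91, SE 0.34, limma adjusted p = 0.0192). Its near-identical neighbour Hbb-bs, with which it may share reads, differed by 1.55 (limma adjusted p = 0.0916). Alas2, the red cell enzyme that starts haem synthesis, was at 49.0, 79.2, 42.2, 52.9 and 59.9 FPKM in GFP-Veh and 151, 166, 277, 195 and 352 FPKM in LH3-AL (log2 difference 1.95, SE 0.41, limma adjusted p = 0.0459). LH3-AL replicate 5 was the highest of its group for both genes.

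Bpgm, which makes the regulator of haemoglobin 2,3-bisphosphoglycerate, was at 13.4, 24.4, 14.5, 16.3 and 16.1 FPKM in GFP-Veh and 42.7, 44.8, 59.4, 41.2 and 69.9 FPKM in LH3-AL (log2 difference 1.55, SE 0.28, limma adjusted p = 0.0195). Fam46c, which is expressed in maturing red cells, rose by 1.52 and Ube2c, a ubiquitin-conjugating enzyme of mitosis, by 1.36 on the log2 scale (limma adjusted p = 0.0292 and 0.0219). Limma called none of 16 cell cycle genes, none had an unadjusted p below 0.05, and their median was 0.03. Fam46c lost its call without any 1 of the 10 libraries, and Ube2c kept it without GFP-Veh replicate 3 or LH3-AL replicate 1, 2 or 5. The ubiquitous counterpart of Alas2, Alas1, went the other way, from 36.99, 40.8, 42.7, 35.3 and 31.3 FPKM in GFP-Veh to 23.9, 20.6, 22.3, 20.96 and 29.2 FPKM in LH3-AL (log2 difference -0.66, SE 0.13, limma adjusted p = 0.0308), a call that held without GFP-Veh replicate 5 or LH3-AL replicate 5 and was lost without each other library (up to 0.108).

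The red cell genes were also high in GFP-AL, where all 10 were called higher against GFP-Veh (10.8% of all genes), with a median of 2.07. LH3-AL minus GFP-AL was -0.44 for Alas2, -0.34 for Hbb-bt and -0.24 for Bpgm on the log2 scale. None of these passed the test (limma adjusted p = 0.433, 0.479 and 0.547). The summed level of the 10 markers was 1515 to 3924 FPKM in GFP-Veh, 4885 to 10321 FPKM in LH3-AL and 3942 to 19599 FPKM in GFP-AL. The count of 5 in LH3-AL against GFP-Veh depended on how the spread was estimated. It was 10 when GFP-AL was left out of the fit and fell to 0 without GFP-Veh replicate 3 or LH3-AL replicate 3, to 1 without GFP-Veh replicate 1, 4 or 5 or LH3-AL replicate 5, and to 3 without LH3-AL replicate 4. Hbb-bt and Bpgm kept their calls without GFP-Veh replicate 2 or LH3-AL replicate 1, 2 or 4. The Alas2 call was lost without any 1 library (limma adjusted p up to 0.147). How much blood each preparation held was not measured, and its part in the result was not tested.

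**Figure D3:**
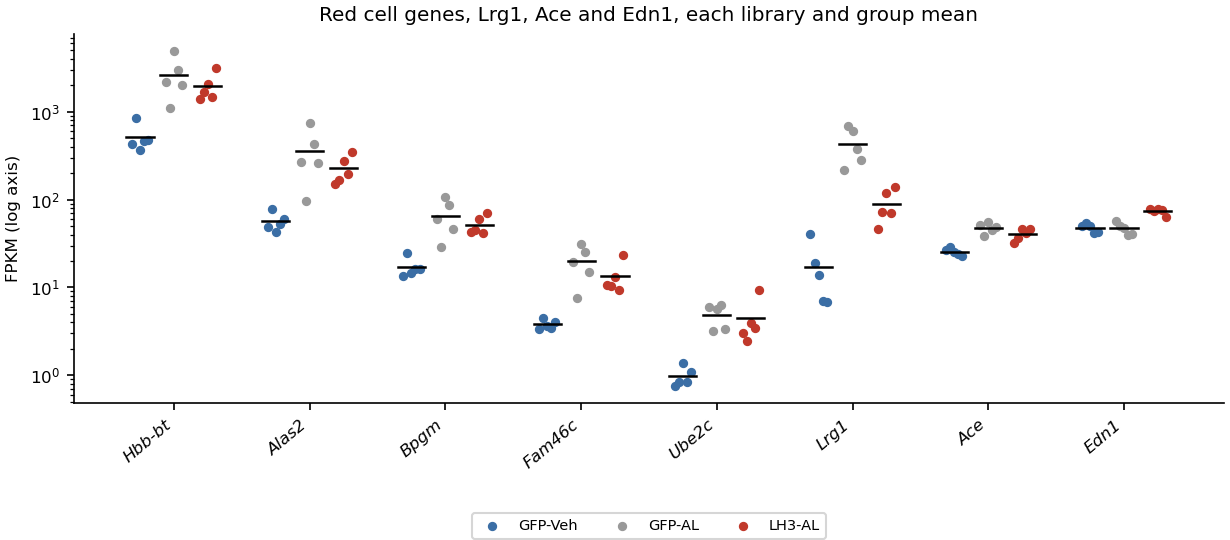
FPKM (y axis, log scale) of 3 red cell markers called higher, of Fam46c and Ube2c, of Lrg1, and of the vessel peptide genes Ace and Edn1, in each library, with black bars for group means. LH3-AL (red) and GFP-AL (grey) both lie above GFP-Veh (blue) for Hbb-bt, Alas2 and Bpgm, and for Edn1 LH3-AL lies above GFP-Veh while GFP-AL overlaps it.

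Several early-response transcription factors of endothelium and stress were lower. Of 27 immediate early genes tested, 4 were called lower (Atf3, Klf2, Klf4 and Klf6) and 1 higher (Ier3), with a median of -0.51. Over all genes, 0.375% were called lower and 0.145% higher. That median pools unlike libraries: the list's median deviation from the GFP-Veh mean ran from -1.04 to 0.51 between LH3-AL libraries. Atf3, a stress-induced transcription factor, was at 10.6, 23.6, 19.2, 22.99 and 18.97 FPKM in GFP-Veh and 9.32, 3.65, 2.43, 1.80 and 2.28 FPKM in LH3-AL (log2 difference -2.17, SE 0.31, limma adjusted p = 0.00582). Klf2, which blood flow induces in endothelium, was at 489.7, 688, 546, 478 and 458 FPKM in GFP-Veh and 362, 247, 199, 124.2 and 175 FPKM in LH3-AL (log2 difference -1.34, SE 0.25, limma adjusted p = 0.0238). LH3-AL replicate 1 was the nearest to the control for both genes. Klf4, its close relative in endothelium, was at 152, 150.02, 183, 143 and 139 FPKM in GFP-Veh and 119.7, 56.5, 74.3, 45.7 and 57.4 FPKM in LH3-AL (log2 difference -1.18, SE 0.24, limma adjusted p = 0.0387). Klf6 fell by 0.83 (limma adjusted p = 0.0248).

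These calls varied in how well they held. Atf3 stayed called when each of the 10 libraries was left out. Klf2 and Klf6 kept their calls in 2 of those 10 fits and Klf4 in 1, with adjusted p of up to 0.0799, 0.0864 and 0.126. All but LH3-AL replicates 1 and 2 ended the Klf2 call when left out, all but LH3-AL replicate 1 and GFP-Veh replicate 2 ended the Klf6 call, and all but LH3-AL replicate 1 ended the Klf4 call. Without LH3-AL replicates 1 and 2 together, Klf2 differed by -1.68, Klf4 by -1.38 and Atf3 by -2.62. These libraries were chosen from values of immediate early genes, so these differences are a description and no test is given. Other members followed the same split: Nr4a1 was at 219, 101, 13.04, 15.1 and 15.6 FPKM in LH3-AL, and Dusp1 at 118.9, 58.8, 19.2, 15.7 and 15.3 FPKM. With all libraries their differences from GFP-Veh were -1.30 and -1.45 (limma adjusted p = 0.585 and 0.323), and for Nr4a1 replicate 1 was above every control library. Without LH3-AL replicates 1 and 2, Nr4a1 differed by -2.61 and Dusp1 by -2.36, also a description with no test.

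In GFP-AL, 5 immediate early genes were called higher and 1 lower than in GFP-Veh (10.8% and 17.7% of all genes), with a median of 0.46. Klf2 and Atf3 differed there by -0.30 and -0.56 (limma adjusted p = 0.39 and 0.198), and both were lower in LH3-AL than in GFP-AL, by 1.03 and 1.61 (limma adjusted p = 0.00797 and 0.00203). Ier3, an early gene of stress and cytokine signalling, was at 41.3, 43.1, 54.9, 42.8 and 35.4 FPKM in GFP-Veh and 82.1, 93.2, 78.1, 85.2 and 131 FPKM in LH3-AL (log2 difference 1.08, SE 0.22, limma adjusted p = 0.0411). Its GFP-AL values of 168 to 418 FPKM lay above both groups. The Ier3 call was lost when any 1 of the 10 libraries was left out (limma adjusted p = 0.0592 to 0.127).

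Several regulators of growth and signalling were also lower. Cdkn1a, the p21 inhibitor of cyclin-dependent kinases, was at 244, 179, 181, 123.7 and 138 FPKM in GFP-Veh and 60.1, 46.4, 87.6, 83.6 and 90.9 FPKM in LH3-AL (log2 difference -1.22, SE 0.25, limma adjusted p = 0.0437). It was the 1 gene called of 29 in the p53 and apoptosis list, where 0.375% of all genes were called lower. The list's median was 0.02, and 6 members had an unadjusted p below 0.05 in the limma fit (1180 of 13082 over all genes). In 4 members all LH3-AL libraries lay below all GFP-Veh libraries (2.61% of all genes). The Cdkn1a call was lost when any 1 of the 10 libraries was left out (limma adjusted p = 0.0566 to 0.126). Dusp8, a phosphatase that switches off JNK and p38 kinases, was at 21.1, 23.9, 27.4, 25.8 and 25.2 FPKM in GFP-Veh and 11.7, 12.2, 9.05, 7.89 and 9.93 FPKM in LH3-AL (log2 difference -1.21, SE 0.13, limma adjusted p = 6.19e-04). It kept its call in every fit that left out 1 library, as did Arid5a, an RNA-binding protein of inflammatory transcripts. Arid5a was at 3.85, 4.63, 4.91, 4.31 and 4.13 FPKM in GFP-Veh and 1.97, 1.25, 1.44, 0.957 and 1.61 FPKM in LH3-AL (log2 difference -1.14, SE 0.16, limma adjusted p = 0.00444).

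Plaur, the urokinase receptor, was at 13.3, 16.99, 14.05, 11.5 and 13.2 FPKM in GFP-Veh, 3.58, 2.12, 4.95, 3.002 and 7.28 FPKM in LH3-AL (log2 difference -1.59, SE 0.29, limma adjusted p = 0.0204) and 35.95, 96.5, 74.5, 52.1 and 31.5 FPKM in GFP-AL. The drugs with the GFP virus thus went with values above control and the drugs with the LH3 virus with values below control, and no libraries of the 3 groups overlapped. Tnfrsf12a, the receptor of the cytokine TWEAK, and Akap12, a scaffold of protein kinase A, had the same order, with log2 differences of -1.04 and -0.996 from GFP-Veh in LH3-AL and of 1.22 and 0.82 in GFP-AL (limma adjusted p = 0.0292, 0.0275, 5.48e-04 and 0.0054). Zyx, a protein of focal adhesions, did so on a smaller scale (-0.53 and 0.30, limma adjusted p = 0.0248 and 0.0359). Of these 4 genes, Plaur kept its LH3-AL call without LH3-AL replicate 1, 3 or 5, Tnfrsf12a without LH3-AL replicate 5, Akap12 without GFP-Veh replicate 2 or LH3-AL replicate 1, and Zyx without GFP-Veh replicate 1 or 2. Leaving out each other library of the 2 groups ended the call, with adjusted p of up to 0.0739 for Plaur, 0.0917 for Tnfrsf12a, 0.0822 for Akap12 and 0.0879 for Zyx.

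Gch1, which makes the cofactor that nitric oxide synthases need, was at 25.6, 31.2, 37.6, 28.6 and 29.3 FPKM in GFP-Veh and 14.1, 8.51, 13.7, 13.1 and 18.3 FPKM in LH3-AL (log2 difference -1.14, SE 0.20, limma adjusted p = 0.0148), with no overlap. In GFP-AL it differed from GFP-Veh by 0.06 (limma adjusted p = 0.837). The call was lost without GFP-Veh replicate 3 (limma adjusted p = 0.0522). Asb4, a ubiquitin ligase adaptor found in vessels, was at 10.4, 12.5, 22.5, 15.7 and 12.7 FPKM in GFP-Veh and 7.81, 6.15, 3.23, 3.32 and 5.67 FPKM in LH3-AL (log2 difference -1.35, SE 0.24, limma adjusted p = 0.0187). It lost its call without GFP-Veh replicate 3 or 4 or LH3-AL replicate 3 or 4 (limma adjusted p = 0.0525 to 0.0615).

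**Figure D4:**
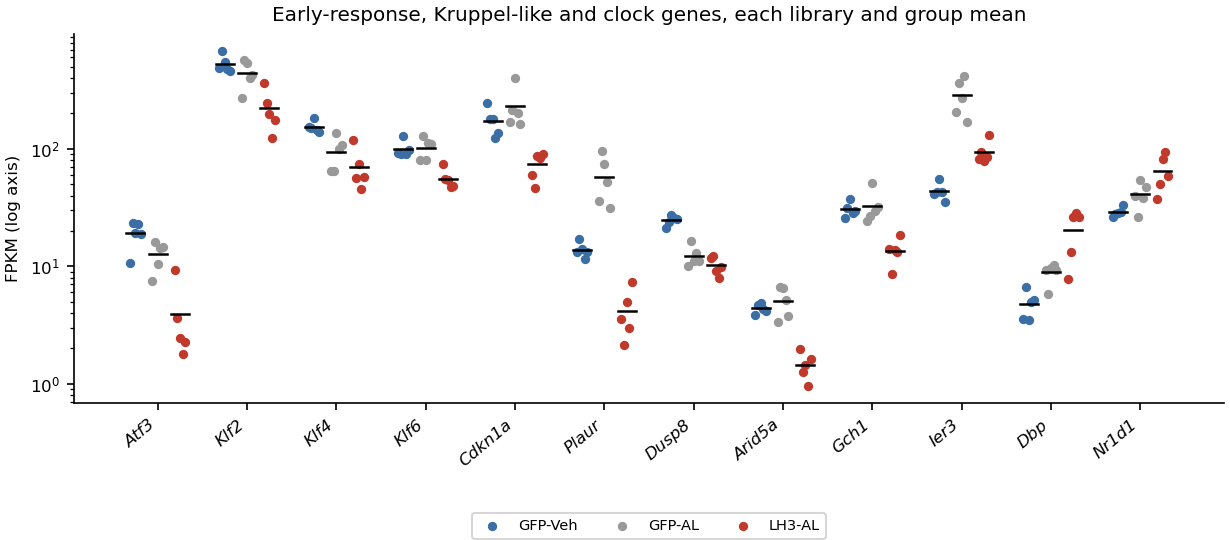
FPKM (y axis, log scale) of 10 early-response and signalling genes and of the clock genes Dbp and Nr1d1 in each library, with black bars for group means. For Klf2, Atf3 and Dbp, LH3-AL replicate 1 (the leftmost red point) is the library of its group nearest to GFP-Veh, and for Plaur the 3 groups are fully separate.

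The clock-output genes Dbp and Nr1d1 were higher. Dbp, a transcription factor with strong daily rhythm, was at 3.57, 6.61, 3.47, 4.93 and 5.18 FPKM in GFP-Veh and 7.78, 13.3, 26.2, 28.4 and 26.4 FPKM in LH3-AL (log2 difference 1.78, SE 0.29, limma adjusted p = 0.0102). Nr1d1, the clock repressor REV-ERB alpha, was at 26.4, 27.6, 28.6, 28.7 and 33.0 FPKM in GFP-Veh and 37.4, 50.3, 81.3, 93.8 and 58.5 FPKM in LH3-AL (log2 difference 1.06, SE 0.22, limma adjusted p = 0.0446). They were the 2 called of 22 clock genes tested, whose median was -0.02, where 0.145% of all genes were called higher. Of the 22, 13 had an unadjusted p below 0.05 in the limma fit, as did 1180 of the 13082 genes. In both, LH3-AL replicates 1 and 2 were the lowest of their group, though still above every control library. Dbp kept its call when any 1 library was left out. Nr1d1 kept it only without LH3-AL replicate 1, with adjusted p of 0.0584 to 0.138 without each other library.

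Other clock genes split the LH3-AL libraries. Tef, a relative of Dbp, was at 6.42, 6.06, 17.02, 18.5 and 17.2 FPKM in LH3-AL and 4.34, 3.51, 2.40, 5.13 and 7.83 FPKM in GFP-Veh, and Per2, a core repressor, at 6.15, 8.77, 20.1, 19.4 and 17.1 FPKM and 9.77, 4.81, 6.43, 8.74 and 10.8 FPKM. With Arntl, all had replicates 1 and 2 within the range of GFP-Veh or near it and replicates 3 to 5 outside. Without replicates 1 and 2, Arntl differed by -1.52, Tef by 1.79, Dbp by 2.31, Nr1d1 by 1.38 and Per2 by 1.17, against -0.94, 1.25, 1.78, 1.06 and 0.67 with all libraries. The choice of those libraries rested on clock genes, so these values are a description with no test. In GFP-AL, Arntl was 11.9, 13.3, 7.95, 8.93 and 14.4 FPKM, below every GFP-Veh library. The labels do not state the hour at which vessels were collected, and its part in these values was not tested.

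The drugs act on angiotensin receptors and nitric oxide synthases. Of 22 angiotensin, endothelin and nitric oxide genes tested, 2 were called, both higher, where 0.145% of all genes were called higher, and the median was 0.01. Ace, the enzyme that makes AngII, was at 26.7, 28.7, 25.2, 24.3 and 22.7 FPKM in GFP-Veh and 32.3, 36.5, 46.6, 42.02 and 46.1 FPKM in LH3-AL (log2 difference 0.64, SE 0.12, limma adjusted p = 0.0229), and at 38.1 to 56.0 FPKM in GFP-AL. Edn1, which encodes the vasoconstrictor endothelin-1, was at 50.4, 54.0, 50.1, 41.7 and 42.7 FPKM in GFP-Veh, 77.7, 73.9, 77.5, 76.1 and 62.9 FPKM in LH3-AL (log2 difference 0.62, SE 0.11, limma adjusted p = 0.0192) and 57.1, 49.9, 47.2, 39.8 and 41.1 FPKM in GFP-AL. Its GFP-AL libraries overlapped GFP-Veh while all LH3-AL libraries lay above both, and its difference from GFP-AL was 0.64 (limma adjusted p = 9.30e-04). Nos3, the endothelial nitric oxide synthase that L-NAME inhibits, differed by -0.21 (limma adjusted p = 0.705). The Ace call held in 3 and the Edn1 call in 5 of the 10 fits that left out 1 library. Ace passed without GFP-Veh replicate 2, LH3-AL replicate 1 or LH3-AL replicate 2, and Edn1 passed without GFP-Veh replicate 1 or 2 or LH3-AL replicate 1, 2 or 5. Elsewhere adjusted p reached 0.0797 for Ace and 0.0667 for Edn1.

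Of 26 genes of inflammation and leukocyte adhesion, 1 was called in LH3-AL, where 0.145% of all genes were called higher. It was Lrg1, a secreted glycoprotein of the acute phase that acts on vessels. Lrg1 was at 40.1, 18.8, 13.7, 7.06 and 6.77 FPKM in GFP-Veh and 46.9, 71.96, 119.2, 69.7 and 141 FPKM in LH3-AL (log2 difference 2.49, SE 0.45, limma adjusted p = 0.0192), and at 215 to 685 FPKM in GFP-AL. The highest control library and the lowest LH3-AL library were close. The call was lost without GFP-Veh replicate 3, 4 or 5 or LH3-AL replicate 3 or 5 (limma adjusted p = 0.0568 to 0.0658). In the limma fit 11 of the 26 had an unadjusted p below 0.05 (1180 of 13082 over all genes), and 3 lay higher in LH3-AL with no overlap (2.06% of all genes). The list's median was 0.29, and 2.10 in GFP-AL, where 23 of the 26 were called higher against the same control libraries (10.8% of all genes). Lcn2 and Serpina3n, named after their values were seen, did not pass the test. Lcn2, an iron-binding lipocalin, was at 7.39, 15.9, 34.8, 15.2 and 97.4 FPKM in LH3-AL against 5.34, 4.74, 7.93, 2.002 and 3.57 FPKM in GFP-Veh (log2 difference 2.17, limma adjusted p = 0.172). Serpina3n, a protease inhibitor, was at 8.59, 17.7, 66.0, 32.9 and 67.5 FPKM against 13.5, 10.7, 6.501, 11.002 and 10.1 FPKM (1.47, limma adjusted p = 0.2). Their spread within LH3-AL was wide, with replicate 1 near control and replicate 5 highest.

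Limma called no member among 19 microglia and macrophage markers (median -0.04), 20 endothelial markers (-0.04), 14 pericyte markers (-0.01), 20 junction genes (-0.03) or 24 blood-brain barrier transporters (0.01), and unadjusted p was below 0.05 for 1, 1, 1, 0 and 2 of them. In GFP-AL, 14 of the microglia and macrophage markers were called higher (10.8% of all genes), with a median of 1.10. Neutrophil and lymphocyte markers summed to 44.4 to 68.8 FPKM in LH3-AL and 88.1 to 231 FPKM in GFP-Veh, with no overlap, but limma called none of the 9 tested, 3 had an unadjusted p below 0.05, and their median was -0.48. Among them were the neutrophil genes S100a8 (-1.44, limma adjusted p = 0.326) and S100a9 (-1.34, limma adjusted p = 0.35). Limma called none of 20 neuron markers (2 had an unadjusted p below 0.05), and their median was 0.17. Oligodendrocyte markers had a median of -0.27 with all 16 differences below 0, none called by limma and 1 with an unadjusted p below 0.05. The plot of list medians sets both comparisons with GFP-Veh side by side. In GFP-AL the medians of inflammation and red cell genes were the 2 highest plotted, and in LH3-AL the red cell median stood alone above 1.

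**Figure D5:**
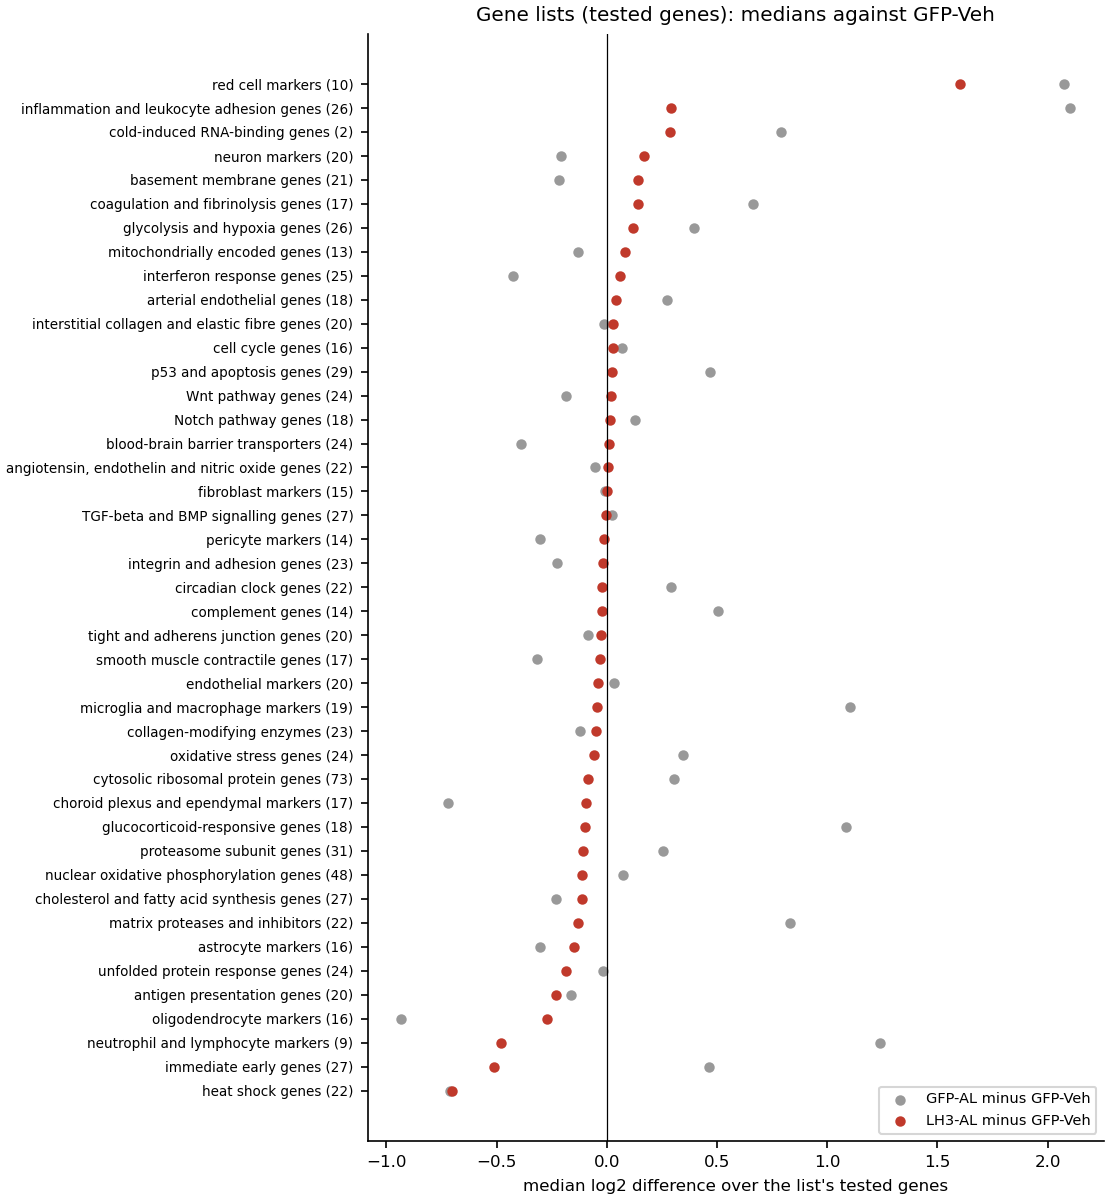
Median log2 difference (x axis) over the tested genes of each of 43 lists (y axis, number of tested genes in brackets), for LH3-AL minus GFP-Veh in red and GFP-AL minus GFP-Veh in grey. Red points lie near 0 for most lists, apart from red cell markers (1.60) and, below 0, heat shock (-0.70), immediate early (-0.51) and neutrophil and lymphocyte genes (-0.48). The immediate early value pools LH3-AL libraries whose own medians ran from -1.04 to 0.51.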

How the data were processed

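RNA-seq of cerebral vessels was analysed from 15 libraries in 3 groups of 5. Per the labels' protocols, vessels came from perfused brains cleared of pia and choroid plexus. Per the submitters' processing notes, STAR 2.5.1b and the genome build mm8 were used; the steps from reads to FPKM are not given there. The deposited table holds FPKM, treated as a score because 5.99% of the authors' values lie below 0 (lowest -0.465); these were set to 0. The authors' deposited table of log2 fold changes and p-values named for this contrast was only checked: all 1746 rows had the sign of LH3-AL minus GFP-AL, 1029 that of LH3-AL minus GFP-Veh, so no value of it is given.

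Rows of 1 symbol were summed, and 13082 of 22526 symbols whose mean over 15 libraries reached 1 FPKM were tested with limma 3.58.1 (R 4.3.3) on log2(FPKM + 1), with all 3 groups and an intensity trend, Benjamini-Hochberg adjusted at 0.05. Differences on this scale are smaller than true fold changes for low genes. Depth was estimated from steps between low values, an estimate that was not tested on simulated data. The limma fit was tested on simulated data. Alternatives covered the pseudocount, filter, scaling, trend, values below 0, row summing, replicate block, depth, groups in the fit and each library left out. Leaving out GFP-AL replicates 2 and 3, LH3-AL replicate 1 with GFP-Veh replicate 2, or LH3-AL replicates 1 and 2 was chosen after seeing the data.

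Members and lists were chosen with earlier results of these data known. Genes named are Plod1 to Plod3, Col4a1 and Col4a2, the 14 highest and 14 lowest called genes whose groups do not overlap, up to 5 called members of each list (or the 2 largest differences where none was called) and the 5 smallest p in each direction, leaving out predicted genes. Others were named after their values were seen: Fos, Nr4a1, Dusp1, Arntl, Tef, Per2, Lcn2, Serpina3n, Nos3, uncalled heat shock and red cell genes, and called genes outside that rule. Promoters are from RefSeq, GRCm38.p6; gene coordinates are from GENCODE M21 (GRCm38), not the authors' build. Some called genes are counted but not reported by name here.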

Additional observations from a re-analysis of the deposited data

Results flagged for a closer look

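In groups of 5 libraries, the highest or lowest library stood apart from the others in 9 of the 82 groups of values examined. Chance gives about 1 in 20 for independent values. These values are of named genes and depth in the same 10 libraries, so they are not independent and no excess over chance is concluded. Among heat shock genes, Hspa1a was 15.2 FPKM in GFP-Veh replicate 1, against 34.6 to 47.2 FPKM in the other controls. It was 8.99 FPKM in LH3-AL replicate 1, against 3.03 to 4.22 FPKM in the other LH3-AL libraries, and Hspa1l was 2.10 FPKM there, against 1.01 to 1.10 FPKM. Atf3, the stress-induced transcription factor, was 10.6 FPKM in GFP-Veh replicate 1 and 19.0 to 23.6 FPKM in the other controls. For these genes the first library of each group thus lay nearest to the other group.

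GFP-Veh replicate 3 stood apart for Klf6, at 128 FPKM against 90.0 to 97.6 FPKM, and for the Wnt antagonist gene Sfrp2, at 1.27 FPKM against 1.85 to 2.03 FPKM. Plod2 was 5.60 FPKM in GFP-Veh replicate 2, against 6.73 to 7.19 FPKM in the other controls. Edn1 was 62.9 FPKM in LH3-AL replicate 5, against 73.9 to 77.7 FPKM in the other LH3-AL libraries. The estimated depth of GFP-Veh replicate 5 was 29.8 M fragments (M, mega), against 13.6 to 16 M in the other controls.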

How the results depend on the processing

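In the alternatives whose gene identities were compared, all 68 genes called in LH3-AL against GFP-Veh kept their sign. The count of 68 (19 higher, 49 lower) was 176 (63 and 113, all 68 included) with only the 2 groups fitted, 170 (66 and 104) without GFP-AL replicates 2 and 3, and 4 (0 and 4) with depth as a covariate. Leaving out 1 library gave 27 to 57 genes called, 2 to 16 higher and 23 to 44 lower. The higher count was 12 with no filter and 11 with median-of-ratios scaling. Non-overlapping genes numbered 402 at a mean of at least 5 FPKM, 686 to 1042 without 1 library, 1443 without LH3-AL replicate 1 and GFP-Veh replicate 2, and 1837 without LH3-AL replicates 1 and 2; fewer libraries leave fewer values that could overlap. Calls in GFP-AL against GFP-Veh were 2174 at the stricter filter and 2336 with depth, and in LH3-AL against GFP-AL 2109 at that filter, 1951 without GFP-AL replicates 2 and 3 and 1559 without LH3-AL replicates 1 and 2. Plod3 passed the threshold at the stricter filter (0.34, limma adjusted p = 0.0366), with quantile normalization (0.38, 0.0263), with 2 groups (0.34, 0.0368) and without GFP-AL replicates 2 and 3 (0.34, 0.0376). Col4a1 ranged from -0.00094 (without LH3-AL replicate 5, a reversal) to 0.25 without 1 library, and Plod2 reversed to 0.064 without LH3-AL replicates 1 and 2. The causes were not tested.

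No pairing by replicate number was seen: same-number deviations correlated at -0.26 to 0.12, and 1 of 5 LH3-AL libraries correlated best with its own number. With 5 libraries a group this check is weak and does not settle whether libraries were paired. With the replicate block, 31 genes were called (6 higher, 25 lower), 29 of them among the 68. Estimated depth differed between the groups, apart from GFP-Veh replicate 5 (29.8 M) and LH3-AL replicate 1 (18.1 M).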

Other observations

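Among called genes outside the lists, Gm28062, a predicted gene whose product is not described in the files, had the largest log2 difference. It was at 0.502, 0.267, 0.282, 0.301 and 0.448 FPKM in GFP-Veh, 26.9, 15.8, 27.1, 18.2 and 17.4 FPKM in LH3-AL and 20.98, 1.09, 1.22, 0.481 and 7.21 FPKM in GFP-AL (log2 difference 3.99, SE 0.54, limma adjusted p = 0.00444). All LH3-AL libraries lay above all GFP-Veh libraries, and GFP-AL replicate 1 lay within the LH3-AL range while GFP-AL replicates 2 to 4 were near 1 FPKM. Its call held when any 1 library was left out. Myo5a, an actin-based motor of vesicles, was at 0.960, 0.296, 2.20, 0.937 and 0.871 FPKM in GFP-Veh, 2.97, 3.74, 2.69, 3.17 and 2.58 FPKM in LH3-AL and 0.902, 0.635, 1.95, 0.612 and 0.970 FPKM in GFP-AL (log2 difference 1.03, SE 0.21, limma adjusted p = 0.0343).

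Nes, an intermediate filament gene active in growing and vascular cells, fell by 1.07 and Tnfrsf25, a receptor of the TNF family, by 0.98 on the log2 scale (limma adjusted p = 0.0192 and 0.0229). In GFP-AL, against the same controls, they differed by -1.51 and -2.09. Bcl6b, a transcriptional repressor of endothelium, was at 22.4, 41.003, 48.4, 46.1 and 39.1 FPKM in GFP-Veh and 22.5, 10.53, 12.6, 9.14 and 17.3 FPKM in LH3-AL (log2 difference -1.41, SE 0.24, limma adjusted p = 0.0148). It was called although LH3-AL replicate 1 and GFP-Veh replicate 1 overlapped. When 1 library was left out, Bcl6b lost its call without replicate 3 or 4 of either group, and Nes without replicate 2, 3 or 4 of either group (limma adjusted p of up to 0.0565 and 0.065). Tnfrsf25 kept its call without LH3-AL replicate 1 or 5 and Myo5a without GFP-Veh replicate 3, and both lost it without each other library (up to 0.0763 and 0.0929).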
